A study of Mus musculus with 12 samples.

Results

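Expression of 42 imprinted genes outside the Dlk1-Dio3 cluster was examined in 12 mouse induced pluripotent stem (iPS) cell clones. The genes were chosen by name, as genes described as imprinted in mouse that lie at other loci than the Dlk1-Dio3 cluster. Their probes were those whose transcript accession belonged to one of these genes, which gave 68 of the 55681 probes on the array and at least 1 probe for each of the 42 genes. The genes were compared between Aid+/+ and Aid-/- iPS cells, between the series of clones and from clone to clone.

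Of the 12 clones, 6 were Aid+/+ and came in 2 series of 3, one holding 967B2, 967B4 and 967B6 and one holding 979B1, 979B3 and 979B4. The 6 Aid-/- clones also came in 2 series, one of 979F1, 979F2 and 979F3 and one of 981E1, 981E4 and 981E5. The series are called 967B, 979B, 979F and, for the last, series E. Aid-/- clones came from animals with a deletion of Aid in all tissues. All 12 were male and carried the Nanog-GFP reporter on a mixed strain background (C57BL6, DBA, 129S4). They had been made from mouse embryonic fibroblasts with retroviral reprogramming factors and were cultured with LIF and puromycin. In the study, clones were passaged first on feeder cells and then 2 times on gelatin, and these were at passage 6 on gelatin. A clone is the line grown from a single colony, and each was measured on 1 array, so that every error given is one of clone-to-clone spread. The grouping into series follows the clone names. Series 967B was hybridised on slide 1 and series 979F on slide 2, while slide 3 carried 979B together with series E. Both genotypes were therefore present on slide 3 alone and, going by the clone names, in experiment 979 alone. On slide 3 each genotype was 1 series, so series and genotype cannot be told apart there. In experiment 979 each was 1 series and the 2 series were on different slides, so slide cannot be told apart either. Nothing in the labels says how many embryos the fibroblasts of a series came from.

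An imprinted gene is transcribed mainly from the chromosome inherited from 1 parent. The choice is set by DNA methylation that differs between the egg and the sperm, is placed at a control region near the gene, and is kept through the global demethylation of the early embryo. The genes lie in domains whose members share such a region. A pluripotent cell that loses the methylation can express both copies or neither, and imprinted genes are therefore widely used to judge the epigenetic state of iPS cells. The arrays measured the RNA of both copies together, so neither the parental origin of the RNA nor methylation was measured.

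The level of a probe is given as log2 signal relative to the 75th percentile of its array, and a difference as a log2 difference. Levels are compared between clones for the same probe only. Of each gene, the probe with the highest mean level is described, and the others where they disagreed. A probe was called at an adjusted p under 0.05 in limma, adjusted over all 55681 probes.

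The arrays were alike in brightness, with 56.9% to 60.4% of probes well above background, and 28321 probes were so on all 12 arrays. All 8 markers of pluripotent cells were well above background in every clone. Of the 10 fibroblast markers, 9 or 10 were well above background in 11 clones and 4 in 967B4. Their mean level was -4.61 in 967B4, between -1.60 and -0.07 in the other Aid+/+ clones and between -0.53 and 0.91 in the Aid-/- clones.

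Most of the imprinted genes were expressed in iPS cells. Of the 42 genes, 35 were well above background in every clone and 4 in some clones. The other 3, the organic cation transporters Slc22a2 and Slc22a3 and the exchange factor Rasgrf1, were not well above background in any clone. Of the 4 genes between, the zinc finger gene Zim1 was well above background on 5 arrays, the nucleosome assembly gene Nap1l5 on 6, and the neuronal proteolipid Nnat and the calcitonin receptor Calcr on 11 each. Of the 19 paternally expressed genes 16, and of the 23 maternally expressed genes 19, were well above background in every clone.

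**Figure D1:**
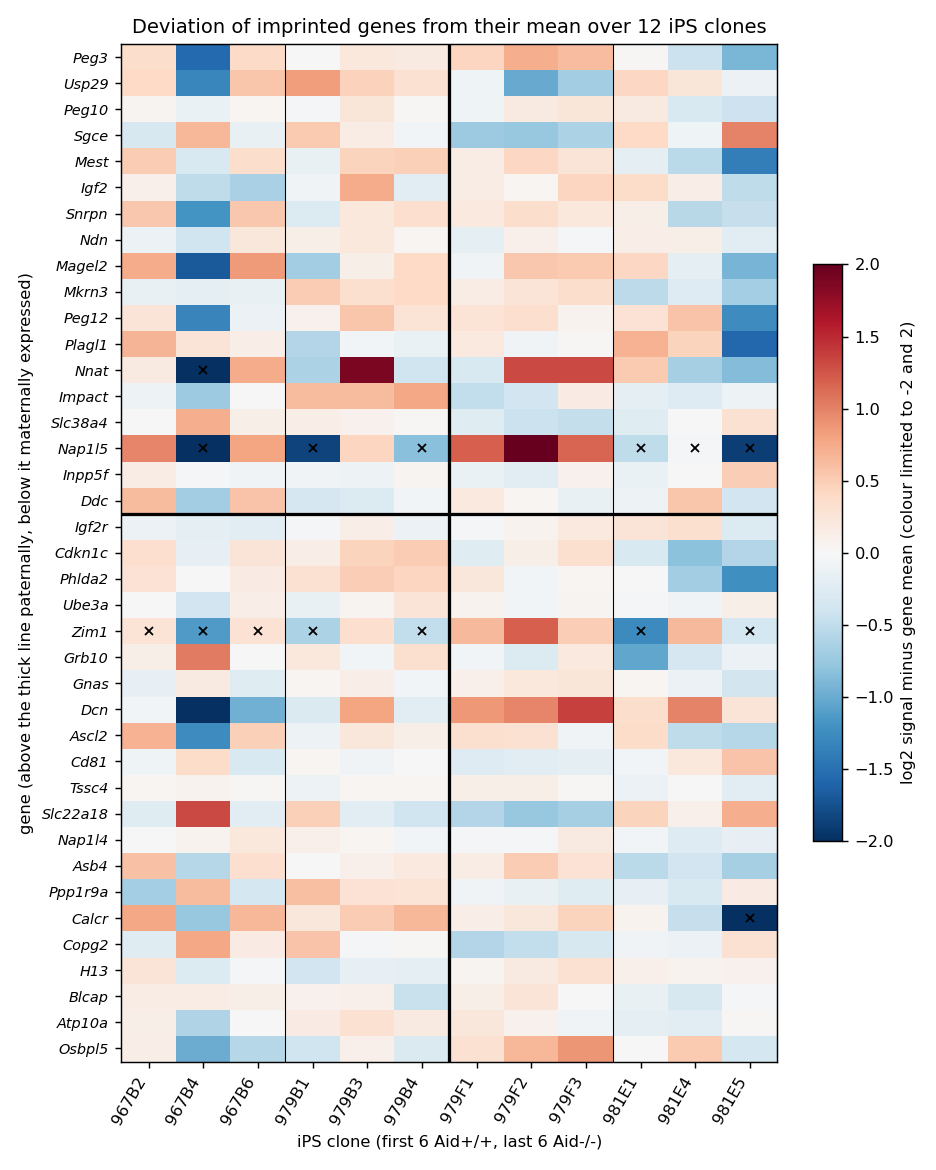
Each square is the log2 signal of a gene (rows, 39 detected genes) in a clone (columns) minus the mean of the gene over the 12 clones, and a cross marks a signal not well above background. Blue squares gather in 967B4 and 981E5, which had 11 and 4 of 35 genes over 2-fold away from the other clones of their series.

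Promoters are shown for 6 genes picked from those named in the comparison of series and clones, all of them paternally expressed. Others named there, such as Peg12 and Usp29, also had a sequence and are not shown. The sequences are from the RefSeq table of GRCm38.p6, a build other than the mm9 of the array design. Of the 42 genes 36 had an entry. The windows run from 250 bases before to 50 bases after a transcript start. The capitals mark TGCCGC or its complement GCGGCA, the hexamer bound by ZFP57, a zinc finger protein that keeps imprints, when the site is methylated. Where a gene had several windows, the window with the most CpG is shown.

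Peg3, chr7:6730370-6730669, minus strand: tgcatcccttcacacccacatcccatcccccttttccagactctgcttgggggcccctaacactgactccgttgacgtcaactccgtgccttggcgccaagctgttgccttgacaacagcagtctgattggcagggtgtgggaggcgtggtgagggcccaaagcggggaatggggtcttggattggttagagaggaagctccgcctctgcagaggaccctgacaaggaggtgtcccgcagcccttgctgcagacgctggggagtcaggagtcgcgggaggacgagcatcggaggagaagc
Mest, chr6:30737800-30738099, plus strand: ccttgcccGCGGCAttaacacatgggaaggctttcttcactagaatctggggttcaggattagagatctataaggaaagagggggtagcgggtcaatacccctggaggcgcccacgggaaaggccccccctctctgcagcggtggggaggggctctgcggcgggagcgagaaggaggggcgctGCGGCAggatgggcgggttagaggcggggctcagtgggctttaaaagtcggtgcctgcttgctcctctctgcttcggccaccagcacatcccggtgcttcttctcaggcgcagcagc
Snrpn, chr7:60005150-60005449, minus strand: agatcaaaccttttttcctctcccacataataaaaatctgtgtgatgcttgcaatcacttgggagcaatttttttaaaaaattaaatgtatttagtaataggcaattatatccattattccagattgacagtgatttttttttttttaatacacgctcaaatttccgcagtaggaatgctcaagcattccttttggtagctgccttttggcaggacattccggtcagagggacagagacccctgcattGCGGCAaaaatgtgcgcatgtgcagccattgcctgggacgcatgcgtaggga
Magel2, chr7:62376729-62377028, plus strand: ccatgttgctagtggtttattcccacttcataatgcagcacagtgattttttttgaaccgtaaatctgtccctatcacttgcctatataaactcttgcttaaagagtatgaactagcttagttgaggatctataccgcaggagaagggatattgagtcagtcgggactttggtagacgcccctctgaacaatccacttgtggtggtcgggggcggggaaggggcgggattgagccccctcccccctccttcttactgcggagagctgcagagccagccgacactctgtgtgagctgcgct
Mkrn3, chr7:62420104-62420403, minus strand: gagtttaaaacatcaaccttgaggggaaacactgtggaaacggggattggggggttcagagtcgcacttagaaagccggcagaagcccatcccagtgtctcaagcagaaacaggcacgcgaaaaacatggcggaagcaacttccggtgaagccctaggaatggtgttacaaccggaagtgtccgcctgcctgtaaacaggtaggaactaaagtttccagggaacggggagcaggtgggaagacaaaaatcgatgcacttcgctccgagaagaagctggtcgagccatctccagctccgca
Plagl1, chr10:13090582-13090881, plus strand: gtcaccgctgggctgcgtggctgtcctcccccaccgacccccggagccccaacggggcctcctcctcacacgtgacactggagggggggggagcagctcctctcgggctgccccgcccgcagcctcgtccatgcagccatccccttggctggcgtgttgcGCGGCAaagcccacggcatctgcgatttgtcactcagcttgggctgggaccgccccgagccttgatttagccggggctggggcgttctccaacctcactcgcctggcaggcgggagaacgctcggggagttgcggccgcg

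The windows held between 7 CpG in Snrpn and 26 in Plagl1. The hexamer was found 2 times in Mest, 1 time in Snrpn and in Plagl1, and not in the other 3. Among all 56 windows of the 36 genes, 23.2% held it, against 11.6% of the 32851 windows in the table, and the median number of CpG was 15.5 against 7. Chromosome 18 was left out of the 56 windows but not of the 32851. The hexamer itself holds a CpG, and some windows of a gene overlap. The 2 shares are therefore no measure of ZFP57 sites at imprinted genes. The window of Peg3 shared 263 bases with that of Usp29, which is read from the other strand.

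No imprinted gene differed between Aid+/+ and Aid-/- iPS cells after adjustment in limma. None of the 42 genes and none of their 68 probes was called, beside 0.0611% of all probes. At an unadjusted p under 0.05 there were 7 genes, 3 higher and 4 lower in Aid-/- clones, and 13.6% of all probes passed that threshold. Among the 35 genes well above background on every array, 13 were higher and 22 lower in Aid-/- clones, with a median difference of -0.05. The median over all 28321 probes so detected was -0.06, and 39.8% of them were higher. The methods' t-test with Benjamini-Hochberg adjustment also called none of the 42 genes, on either the scanner values or the deposited log2 values.

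**Figure D2:**
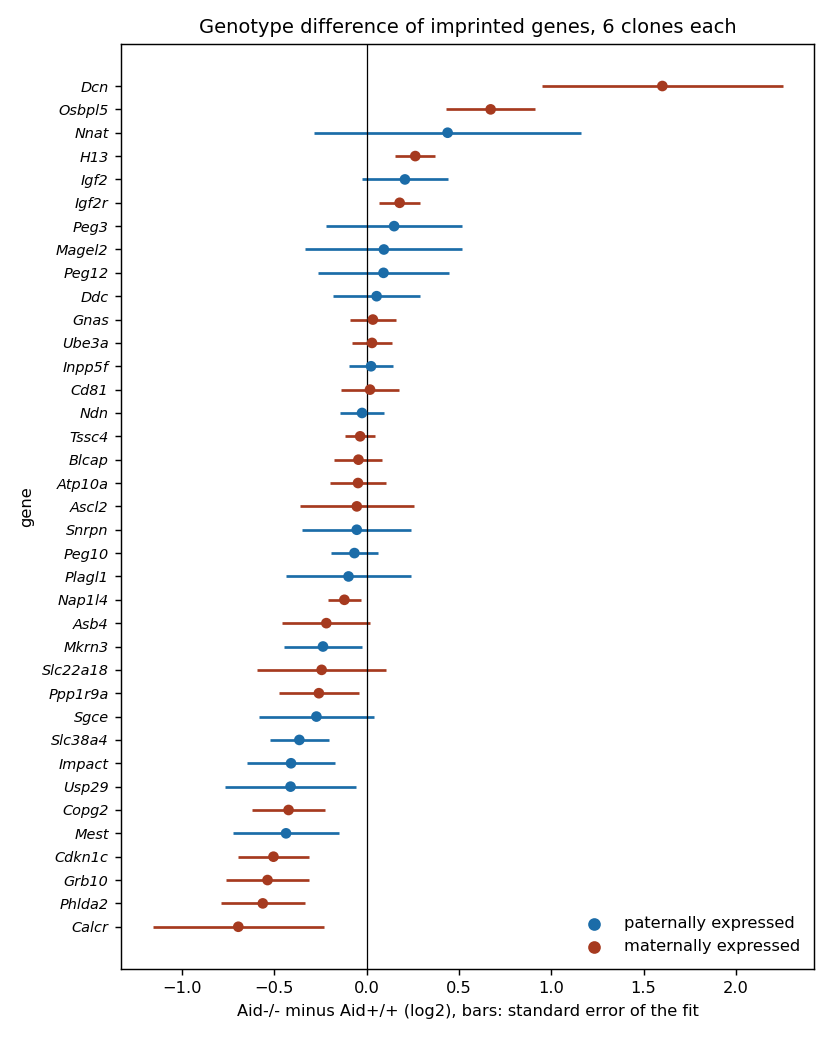
Points give the log2 difference between 6 Aid-/- and 6 Aid+/+ clones for the genes well above background on at least 11 arrays, and bars its standard error. The largest difference was that of Dcn, at 1.60 with a standard error of 0.65, and no gene was called.

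The growth-restraining genes of distal chromosome 7 were the lowest in Aid-/- relative to their spread. Cdkn1c, a maternally expressed inhibitor of cyclin-dependent kinases, read from 2.70 to 3.36 with a median of 3.16 in Aid+/+ clones and from 2.05 to 3.18 with a median of 2.59 in Aid-/- clones. The groups overlapped, and the difference was -0.51 ± 0.19 (SE, limma adjusted p = 0.273). Phlda2, a maternally expressed gene that limits the growth of the placenta, read from 1.42 to 1.90 with a median of 1.71 in Aid+/+ clones. In Aid-/- clones it read from 0.19 to 1.65 with a median of 1.39, and the 2 lowest values were those of 981E4 and 981E5. Its difference was -0.56 ± 0.23 (SE, limma adjusted p = 0.301). Between genotypes within slide 3 (series E against 979B) and within experiment 979 (979F against 979B), Cdkn1c differed by -0.93 and -0.29 and Phlda2 by -1.04 and -0.34.

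Grb10, an adaptor that dampens insulin and growth factor signalling, differed by -0.54 ± 0.23 (SE, limma adjusted p = 0.324). Its highest level was 1.63 in 967B4 and its lowest -0.45 in 981E1, and the other 10 clones lay between 0.25 and 0.90. Slc38a4, a paternally expressed amino acid transporter, differed by -0.37 ± 0.16 (SE, limma adjusted p = 0.344). It was also highest in 967B4, at 3.97. Within slide 3 and within experiment 979 the differences were -0.65 and -0.20 for Grb10 and -0.06 and -0.46 for Slc38a4.

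Dcn and Osbpl5 read higher in Aid-/- clones, at an unadjusted p under 0.05. Dcn, a proteoglycan of connective tissue made by fibroblasts, read from -4.00 to 0.85 with a median of -0.18 in Aid+/+ clones and from 0.32 to 1.43 with a median of 0.99 in Aid-/- clones. The difference of 1.60 ± 0.65 (SE, limma adjusted p = 0.309) was 1.06 without 967B4 and 981E5. Osbpl5, a lipid transfer protein of the oxysterol-binding family, read from -0.45 to 0.67 in Aid+/+ and from 0.18 to 1.41 in Aid-/- clones (difference 0.67 ± 0.24, SE, limma adjusted p = 0.246). Within slide 3 and within experiment 979 the differences were 0.44 and 0.97 for Dcn and 0.25 and 0.81 for Osbpl5.

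The mean of the 10 fibroblast markers moved with both genes. Over the 12 clones it had a Pearson r of 0.992 and a Spearman rho of 0.972 with Dcn, and of 0.879 and 0.979 with Osbpl5. In each case the permutation p was 1e-05, the smallest that 100000 resamples can give, and 0.000175 after adjustment over the 35 genes. Without 967B4 the r was 0.964 and 0.955, and without 967B4 and 967B6, the 2 clones farthest from the median of the markers, 0.940 and 0.965. Slc38a4 (r = -0.871, rho = -0.888) and the coat protein gene Copg2 (r = -0.817, rho = -0.874) ran the other way, each with an adjusted permutation p of 0.0028 for r. Slc22a18 did so with an r of -0.750 and a rho of -0.727 (adjusted permutation p = 0.040 for r). These 5 of the 35 genes passed for r, and 7 for rho. The share of all probes that would pass was not counted, so neither count is a result about the imprinted genes. Without 967B4, only Dcn and Osbpl5 passed for r, where the adjusted p of Slc38a4 and Copg2 was 0.0644. For rho, Slc38a4 and Copg2 passed as well (adjusted permutation p = 0.0169 and 0.0179), and Slc22a18 passed for neither. The mean level of the markers was also 1.65 higher in Aid-/- than in Aid+/+ clones, and 1.00 without 967B4. The study passaged the clones on gelatin to remove feeder cells. The part of other cells in these differences was not tested, and in these samples fewer cells of a type and less RNA per cell cannot be told apart.

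**Figure D3:**
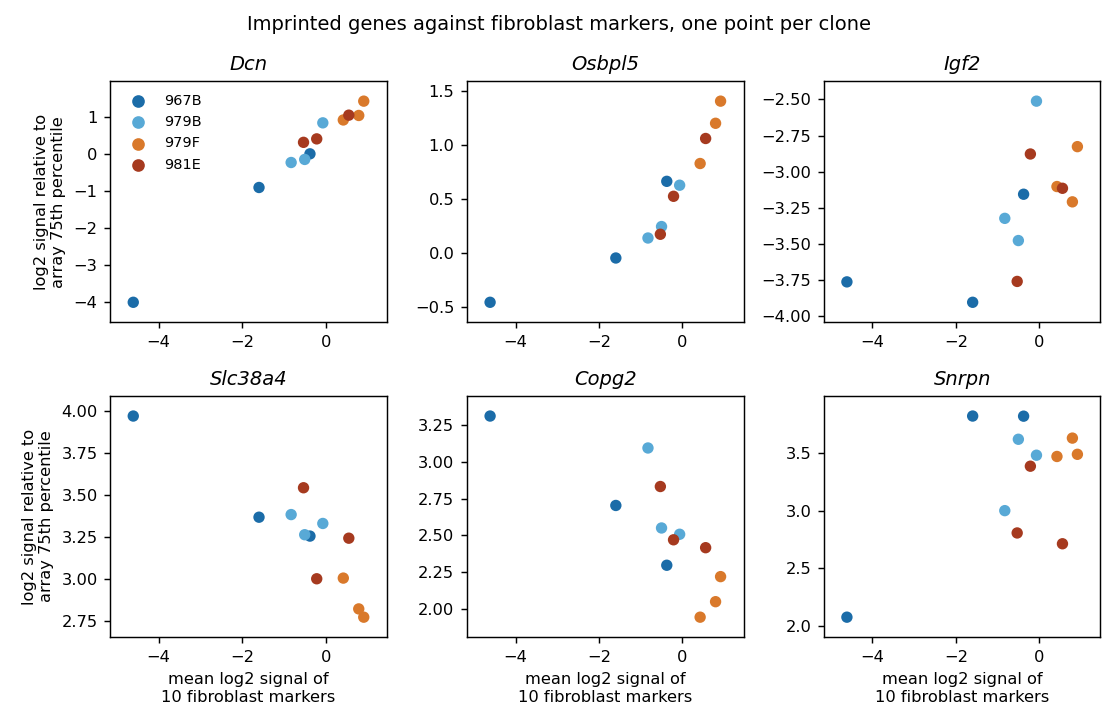
Log2 signal of 6 genes (vertical axes) against the mean log2 signal of 10 fibroblast markers (horizontal axes), with 1 point per clone coloured by series. Dcn and Osbpl5 rose along the axis with an r of 0.992 and 0.879, Slc38a4 and Copg2 fell, and the point far to the left is 967B4.

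H13, a signal peptide peptidase whose gene hosts the imprinted Mcts2 in an intron, was the only gene with a probe whose genotypes did not overlap, and is named because of that. On this probe, its second dimmest, Aid+/+ clones read -0.02, -0.62, -0.19, -0.48, -0.22 and -0.04 in the order given above, and Aid-/- clones 0.25, 0.57, 0.50, 0.52, 0.21 and 0.63. All 6 Aid-/- clones were above all 6 Aid+/+ clones. Such a lack of overlap, in either direction, was found for 1 of the 68 probes, beside 2.17% of all probes, and for the main probe of no gene. The difference was 0.71 ± 0.13 (SE, limma adjusted p = 0.0644), the lowest adjusted p among the 68 probes, and between 0.64 and 0.76 when any single clone was left out. The difference was 0.70 within slide 3 and 0.69 within experiment 979. As the probe was chosen for its lack of overlap, the direction in these smaller sets of clones was fixed by that choice. The other 3 probes of H13 were higher by 0.26, 0.31 and 0.36, with overlapping clones and adjusted p from 0.298 to 0.546 in limma.

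For the genes most used to judge imprints, no difference between genotypes passed. The difference was -0.05 for Snrpn, a splicing factor gene of the Prader-Willi domain, and -0.07 for Peg10, a retrotransposon-derived gene needed for the placenta. It was 0.15 for the zinc finger gene Peg3, 0.18 for Igf2r, the receptor that clears insulin-like growth factor, and 0.21 for Igf2, the growth factor itself. Their limma adjusted p lay between 0.531 and 1.00. Mest, a hydrolase-like gene of the mesoderm, was at -0.44 ± 0.29 (SE, adjusted p = 0.556) and the transcription factor gene Plagl1 at -0.10. For Impact, a regulator of translation, the difference was -0.41 ± 0.24 (SE, adjusted p = 0.501), and on its second probe 0.25. Within slide 3 and within experiment 979 the differences were of other sizes or signs. They were -0.57 and 0.46 for Peg3, -0.40 and 0.16 for Snrpn, -0.26 and 0.03 for Peg10 and -0.15 and 0.06 for Igf2. They were -0.96 and 0.02 for Mest, 0.11 and 0.31 for Plagl1 and -0.86 and -0.92 for Impact, and 0.11 and 0.08 for Igf2r. The standard errors of these genes, from 0.11 for Igf2r to 0.37 for Peg3, set how small a difference could be seen.

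Between the 4 series of clones, Mkrn3 was the only imprinted gene called on its main probe. In the moderated F-test of limma over the series means, 1 of the 42 genes was called, beside 4.16% of all probes. At an unadjusted p under 0.05, 10 of 42 passed, beside 21.9%. Neither count is therefore a result about the imprinted genes as a group. Mkrn3, a paternally expressed ubiquitin ligase gene of the Prader-Willi domain that restrains the onset of puberty, read -0.64, -0.69 and -0.64 in 967B and 0.02, -0.17 and -0.09 in 979B. It read -0.34, -0.22 and -0.14 in 979F and -1.01, -0.74 and -1.17 in series E. The 3 clones of series E were the lowest of all 12, and those of 967B came next, with no overlap with 979B or 979F. The adjusted p of the F-test was 0.0151, and its other probe gave 0.023.

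The low level of Mkrn3 in series E was also called in the contrasts between pairs of series. There it was lower than in 979B, on the same slide, by 0.89 on the log2 scale, with a standard error of 0.13 (limma adjusted p = 0.00646), and lower than in 979F, of the same genotype, by 0.74 with the same error (adjusted p = 0.0192). The Aid-/- series therefore lay on opposite sides of the Aid+/+ series 967B, and the genotype difference was only -0.24 ± 0.21 (SE). On the main probe, the call of the F-test and that against 979B held without any single clone. On the other probe the F-test call was lost without 979F1, 979F2, 979F3 or 981E4, with an adjusted p of up to 0.0603. The call against 979F was lost without 979F2, 979F3 or 981E5, with an adjusted p of at most 0.0825.

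In the pairs of series, 2 of the 42 genes were called for series E against 979B, beside 4.13% of all probes, and 1, Mkrn3, for 979F against series E, beside 3.02%. None was called for 979F against 979B (0.614% of all probes), for 979B against 967B (0.711%) or for series E against 967B (0.196%). None was called when the genotype difference in experiment 979 was set against that in the other clones, beside 0.106% of all probes. These contrasts share series, so their counts are not independent.

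The second gene called was Cdkn1c. It read 3.00, 3.31 and 3.36 in 979B and 2.56, 2.05 and 2.27 in series E, which do not overlap. In series E it was lower by 0.93 on the log2 scale, with a standard error of 0.20 (limma adjusted p = 0.0348). In 967B it read 3.20, 2.70 and 3.12, and in 979F 2.63, 2.97 and 3.18. Within experiment 979 the difference was -0.29 ± 0.20 (SE, limma adjusted p = 0.545). The call for series E was lost in 7 of the 12 fits that left out a clone (967B6, 979F2, 979B1, 979B3, 979B4, 981E4 or 981E5), with an adjusted p of up to 0.118.

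Its neighbour Phlda2 followed the same order of series. It read 1.72, 1.90 and 1.85 in 979B, 1.71, 1.42 and 1.58 in 967B and 1.65, 1.36 and 1.46 in 979F. In series E it read 1.43, 0.73 and 0.19, so that 981E1 lay within the range of the other series. The difference from 979B was -1.04 ± 0.26 (SE, limma adjusted p = 0.052).

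Impact stood out in 979B. Its main probe read 5.39, 5.39 and 5.54 in 979B, above all other clones, which lay between 4.04 and 4.93. The F-test gave an adjusted p of 0.0645. The second probe of Impact went the other way, with a mean of -2.13 in 979B against -1.53 in 967B and -1.58 in both Aid-/- series, so the level of the gene as a whole cannot be read from either. Within slide 3 alone, series E against 979B called the main probe (-0.86 ± 0.12, SE, limma adjusted p = 0.0427).

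Gnas, which codes for the stimulatory G protein alpha subunit and several imprinted transcripts, differed between its probes as well. The main probe was level, from 4.33 to 4.95. A dimmer probe, well above background on all arrays, read -2.98, -3.09 and -3.06 in 967B and -3.91, -4.11 and -4.26 in 979B. It was called in the F-test (adjusted p = 0.0315) and for 979B against 967B (-1.05 ± 0.17, SE, limma adjusted p = 0.0237), both of which are Aid+/+. The F-test call was lost in 8 of the 12 fits that left out a clone, with an adjusted p of up to 0.0875.

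**Figure D4:**
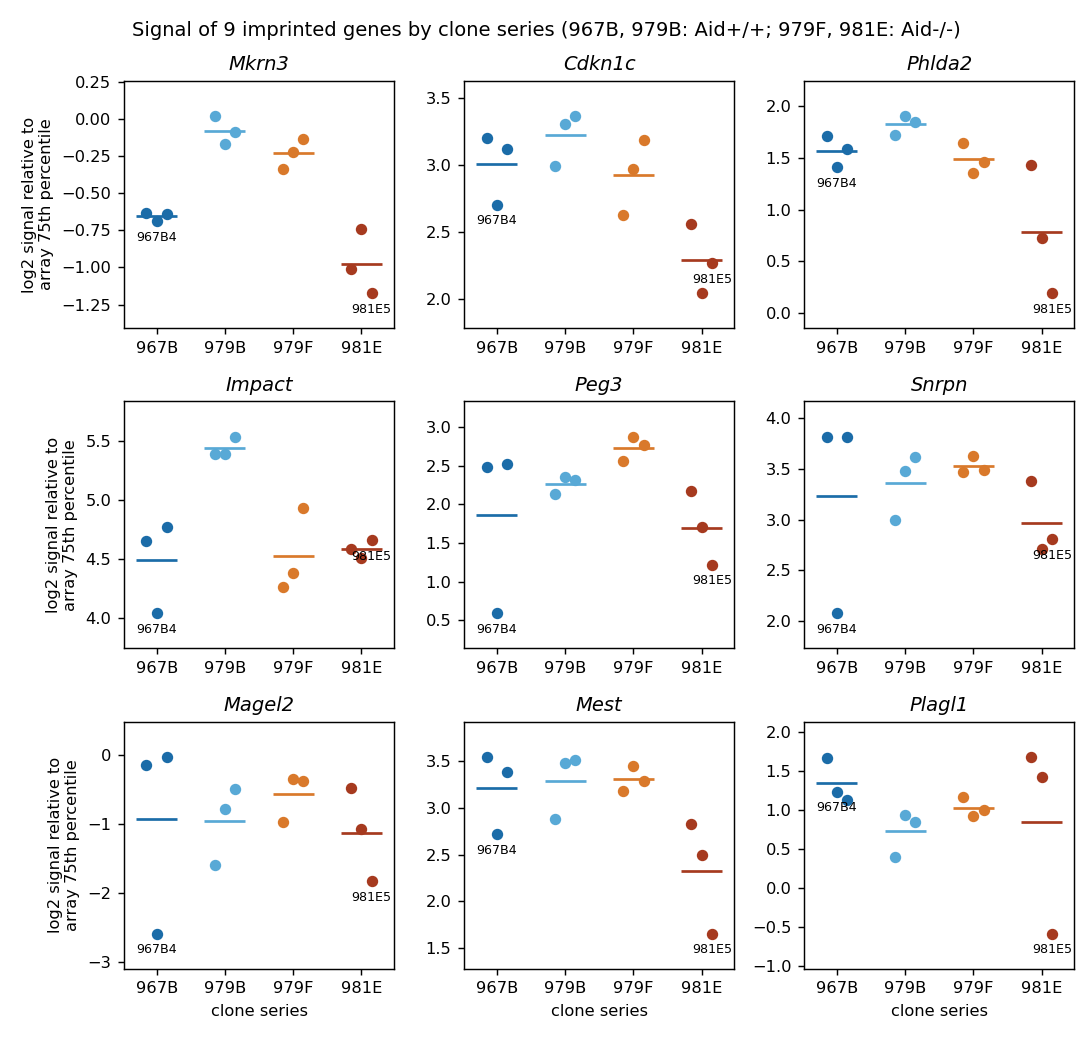
Log2 signal of 9 genes (one panel each, vertical axes of different range) in the 4 clone series, with 1 point per clone and a line at the series mean. All 3 clones of series E were lowest for Mkrn3, whereas for Peg3, Snrpn and Magel2 the clone 967B4 alone lay below all others.

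The imprinted genes varied more from clone to clone than most detected probes. The 35 genes well above background on every array had a median standard deviation of 0.42 over the 12 clones, against 0.26 for all 28321 such probes. Of the 35, 24 were above the median of all, 22 above their 75th percentile, 11 above the 90th and 2 above the 95th. Without 967B4 and 981E5 the medians were 0.34 and 0.22. The least variable genes were Tssc4 and Nap1l4, neighbours on distal chromosome 7, with standard deviations of 0.10 and 0.13, and the most variable was Dcn with 1.45.

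The clone 967B4 stood farthest from its sister clones. Without it the median spread of the 35 genes was 0.38. In this Aid+/+ clone, 11 of the 35 genes were over 2-fold away from the mean of 967B2 and 967B6, 9 lower and 2 higher, beside 9.14% of all probes well above background on every array. Peg3 read 0.59 in 967B4 and between 1.71 and 2.87 in the 10 clones other than it and 981E5. That was 3.76-fold below its sister clones, whose levels were 2.49 and 2.52. The second probe of Peg3 was also lowest there, at -2.47. Usp29, a ubiquitin protease gene that starts beside Peg3, read -4.52 in 967B4 against -2.83 and -2.66, although 979F2, at -4.23, was nearly as low.

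Genes of the Prader-Willi domain were low in the same clone. Snrpn read 2.08 against 3.82 in both sister clones, a 3.34-fold difference. A second probe was also lowest there, at 1.44, and on the third 967B4 and 979B1 were level, at -2.50 and -2.48. Magel2, a regulator of protein ubiquitination active in the hypothalamus, read -2.58 against -0.15 and -0.04, a 5.61-fold difference. Peg12, a gene at the edge of the domain, read -1.40 against 0.17 and -0.19. Ndn, a growth suppressor of neurons, read -1.41 against -1.13 and -0.79, and Mkrn3 was level across the 3 clones of 967B. The difference from the sister clones was thus unequal along the domain.

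Nnat and Nap1l5, both paternally expressed, were not well above background in 967B4, with readings of -5.36 and -6.99. In 967B2 and 967B6 both were detected. Nnat varied elsewhere too. It read -2.89, -0.38 and -2.66 in 979B, -2.57, -0.95 and -0.94 in 979F and -1.74, -2.93 and -3.13 in series E, so single clones of both genotypes were high. Nap1l5 was detected in all 3 clones of 979F, in 979B3 and in none of series E. Its second probe was not well above background in any clone, so this pattern rests on 1 probe.

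Of the maternally expressed genes, Ascl2, a transcription factor of the trophoblast, read 0.78 in 967B4 against 2.73 and 2.53. Slc22a18, a transporter gene beside Phlda2, read 1.61 against 0.05 and 0.07, and Ppp1r9a, a protein of the synapse, 2.26 against 0.96 and 1.28. The same clone had the lowest fibroblast markers, a mean of -4.61 against -0.37 and -1.60 in its sister clones. Its mean level of the 8 pluripotency markers was the highest of the 12 clones, at 5.33. For Peg3 and Snrpn the r with the fibroblast markers was 0.727 and 0.582 over the 12 clones and 0.261 and -0.141 without 967B4. The part of other cells in the levels of 967B4 was not tested.

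In the Aid-/- clone 981E5, 4 of the 35 genes were over 2-fold away from the mean of 981E1 and 981E4, all of them lower, beside 3.8% of all probes. Plagl1, which regulates a network of growth genes, read -0.58 in 981E5 against 1.68 and 1.43, a 4.40-fold difference, and between 0.40 and 1.68 in the 10 clones other than it and 967B4. A second probe read -1.30 against 1.31 and 1.03, and the 2 dimmest probes of the gene showed no such fall. Peg12 read -1.33 against 0.21 and 0.49, Mest 1.65 against 2.83 and 2.50, and Magel2 -1.82 against -0.49 and -1.08. For Mest the level in 981E5 was the lowest of all 12 clones. Its second probe gave the same, at 0.03, and on its dimmest probe 981E5 and 967B4 were level, at -2.12 and -2.11. Calcr was not well above background in 981E5 only, at -5.62. The mean of the fibroblast markers in 981E5 was -0.53, against -0.21 and 0.56 in its sister clones.

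**Figure D5:**
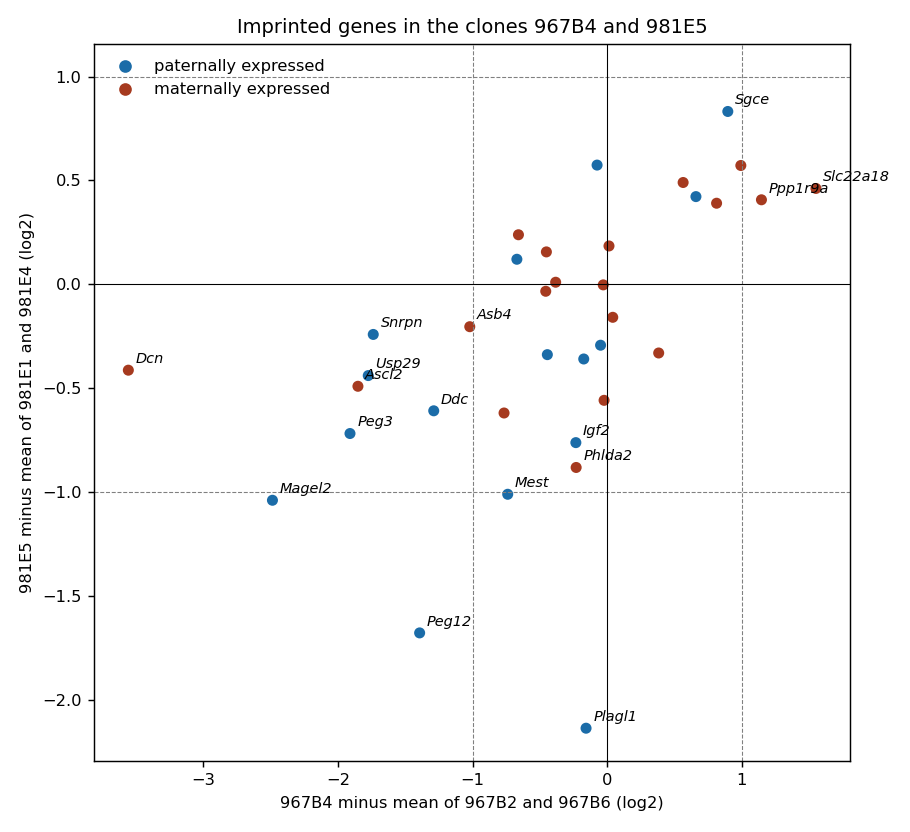
Each point is 1 of the 35 genes well above background on all arrays, placed by its log2 difference from the sister clones in 967B4 (horizontal) and in 981E5 (vertical), with dashed lines at 2-fold. Magel2 and Peg12 were over 2-fold lower in both clones, Peg3, Snrpn and Usp29 in 967B4, and Plagl1 and Mest in 981E5.

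In the other clones such deviations were few. None of the 35 genes was over 2-fold away in any clone of 979F, nor in 979B1 or 979B4. Of all probes well above background on every array, 0.395% to 0.844% were so in these clones. In 979B3 there was 1, Dcn, in 981E1 Plagl1 and in 981E4 Peg12, beside 0.494%, 1.6% and 1.05% of all such probes. For 967B2 and 967B6 there were 3 each, beside 2.55% and 1.85% of all such probes, with 967B4 in the mean they were compared with. The clones of 979F and 979B were the most alike, with a median distance over the 35 genes of 0.13 to 0.20 from their sister clones, against 0.66 for 967B4 and 0.42 for 981E5. Over all probes well above background on every array the median distances were 0.09 to 0.17, 0.30 and 0.25, in the same order of clones.

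Neighbours of the same domain were then compared over the 12 clones, for the 13 of 17 listed pairs in which both genes were well above background on every array. Snrpn and Magel2 went together most closely, with a Pearson r of 0.934 (adjusted permutation p = 0.00091) and a Spearman rho of 0.923 (0.00078). Without 967B4 and 981E4, the clones farthest from the median of Snrpn, r was 0.950. Cdkn1c and Phlda2 had an r of 0.814 (adjusted permutation p = 0.00871) and a rho of 0.811 (0.0154), and an r of 0.606 without 981E4 and 981E5. The other 11 pairs did not pass. Pairs of genes that are not neighbours were not examined, so the counts of pairs, here and below, are no result about imprinted domains. Clones of a series are not fully independent, and on the deviations from the series means r was 0.949 for Snrpn and Magel2 (adjusted permutation p = 0.000195). It was 0.373 for Cdkn1c and Phlda2 (0.335), which therefore rested on the difference between series.

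On the deviations from the series means 7 of the 13 pairs passed, 5 with a positive and 2 with a negative r. The permutation moved the deviations freely between series, although they are centred within each series and differ in spread between series. The permutation p on deviations, here and above, may therefore be too small, and the count of pairs too high. Beside Snrpn and Magel2, the positive pairs of the Prader-Willi domain were Snrpn and Ube3a, a ubiquitin ligase gene (r = 0.789, adjusted permutation p = 0.0076), Ndn and Magel2 (0.776, p = 0.00764) and Snrpn and Ndn (0.657, p = 0.038). Over the clones themselves their r was 0.712, 0.633 and 0.544 in this order and did not pass. Without 967B4 it was 0.374, 0.331 and 0.143, so the r over the clones leaned on that clone for these pairs. For Snrpn and Magel2 it was 0.869 without 967B4. Of the negative pairs, Asb4 and Ppp1r9a, a substrate adaptor of ubiquitin ligases and a synaptic scaffold of the Peg10 domain, had an r of -0.951 (adjusted permutation p = 0.000195), and Mest and Copg2, which overlap tail to tail, one of -0.818 (0.00589). Over the 12 clones themselves these were -0.444 and -0.443 and did not pass, and without 967B4 they were -0.302 and -0.429. Peg10 and Sgce, a sarcoglycan gene that starts beside Peg10 and shares its parental origin, had an r of -0.482 and a rho of -0.385 (adjusted permutation p = 0.193 and 0.353). Sgce read from -0.32 to -0.20 in 979F and 0.84, 0.36 and 1.43 in series E, while Peg10 lay between -1.10 and -0.44 in all clones. The r of Peg3 and Usp29 was 0.797 on the deviations (adjusted permutation p = 0.00834). Over the clones themselves it was 0.269, and -0.666 without 967B4 and 981E5. The r on the deviations was not computed without these clones.

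Among genes that keep imprints, such as the DNA methyltransferases and Trim28, the partner of ZFP57, none of 14 was called between genotypes or in the F-test over series, and the level of all 14 was well above background in every clone. In the pairs of series, Ehmt2, a histone methyltransferase, was called for 979F against series E, beside 3.02% of all probes. Of 27 further imprinted genes 24 had a probe, and none of these was called between genotypes. In the F-test 1 of the 24 was called, beside 4.16% of all probes. It was Pon2, an esterase of the Peg10 domain (limma adjusted p = 0.0328), which was also called for 979F against series E (0.90 ± 0.17, SE, adjusted p = 0.0259). Sfmbt2, a Polycomb-related gene, was called for series E against 979B (-0.80 ± 0.19, SE, limma adjusted p = 0.0437), beside 4.13% of all probes.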

How the data were processed

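Gene expression of 12 mouse iPS cell clones was measured on 1-colour Agilent arrays, with 1 array per clone. The authors hybridised Cy3-labelled RNA and quantified the images in Feature Extraction 10.7.3.1. The deposited spot values used here are its processed intensity, from which the authors' software had already removed background and spatial gradients, with no scaling from array to array. A deposited table of log2 values, scaled by the authors to the 75th percentile of each array, and the median spot and background intensities deposited by the authors served as alternatives. The deposited log2 values followed the values used here with a Pearson r of 1 on every array.

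Control and outlier spots were left out, spots of a probe were averaged, log2 was taken and the 75th percentile of each array subtracted. It lay between 418 and 509 on the intensity scale. A probe was well above background where the software said so for a share over 0.5 of its spots, and precision is limited by how many arrays there are. Of 28685 accessions 27235 were named through a RefSeq table of GRCm38.p6, from which the promoter sequences also came, and no array position was taken from it. All 55681 probes were fitted with limma 3.58.1 (R 4.3.3), with no covariate for the genotypes and with a mean per clone series, and adjusted by Benjamini-Hochberg. Correlations were tested by permutation (100000 resamples, two-sided). The fits were tested on simulated arrays. Python 3.11.15 with numpy 2.4.6, pandas 2.3.3 and matplotlib 3.10.9 was used for the rest.

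Full values are given for genes called in any test, for the 10 genes with the largest standard deviation among those well above background on at least 6 arrays, and for Peg3, Peg10, Mest, Igf2, Igf2r, Cdkn1c, Snrpn, Grb10, Impact, Nnat, Phlda2 and Plagl1. Other genes were named after their values were seen. The genes and lists were chosen with earlier results of these data known. The correlations with fibroblast markers, the fits without 967B4 and 981E5, the genotypes within slide 3 and within experiment 979, and the t-test on the deposited values were added after the data were seen. Alternatives were normexp, the deposited log2 values, quantile normalization, a percentile taken over detected probes only, filters on dim probes, limma with trend and robust estimation, a 2-fold threshold, the mean of a gene's probes, the methods' t-test, slide and series as blocks, and leaving out each clone. The tests treat clones as replicates, and clones of a series may share their fibroblasts. The check of the targeted gene is not reported here.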

Additional observations from a re-analysis of the deposited data

Results flagged for a closer look

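In 13 of 78 groups of 6 clones, 1 gene in 1 genotype each, a single clone lay far from the other 5 by Dixon's test at the 95% level, which chance alone flags in about 5% of groups, or 3.9 of 78. That is 16.7% of the groups, beside 10.2% of 74220 such groups over all probes. Of the 13, 8 were in 967B4 and 3 in 981E5, clones that over all probes held 26.9% and 30.5% of the single clones so found. The count is therefore no result about the imprinted genes alone. In 967B4, Peg3 read 0.59 against 2.14 to 2.52 in the other Aid+/+ clones, Usp29 -4.52 against -2.92 to -2.39 and Peg12 -1.40 against -0.19 to 0.48. Dcn read -4.00 against -0.90 to 0.85, Calcr -3.88 against -2.90 to -2.35 and Atp10a, a lipid-transporting ATPase, -2.16 against -1.57 to -1.24. Higher than in the other Aid+/+ clones were Slc38a4 (3.97 against 3.26 to 3.38) and Grb10 (1.63 against 0.53 to 0.90).

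In 981E5, Plagl1 read -0.58 against 0.92 to 1.68 in the other Aid-/- clones, Peg12 -1.33 against 0.00 to 0.49 and Calcr -5.62, a signal not well above background, against -3.58 to -2.69. In the other clones, Tssc4 read 2.82 in 979B1 against 2.95 to 2.99, and Blcap, an apoptosis-related gene that hosts Nnat, 0.70 in 979B4 against 1.25 to 1.30. No gene differed in its genotype effect between experiment 979 and the other clones at an adjusted p under 0.05 in limma.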

How the results depend on the processing

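No paired analysis was possible because the replicate numbers follow the order of the samples and only name the clones. No gene was called between genotypes under any setting but 2. Those were slide as a fixed block and slide 3 alone (1 gene, Impact). The first, in which only slide 3 informs the genotype, called 2 genes, Mkrn3 and Cdkn1c. It is the same contrast as series E against 979B, where 4.13% of all probes were called. The count of the F-test over series, 1, was 3 with normexp, with the filter on at least 3 arrays and with trend and robust estimation, 4 with the filter on all 12 arrays, 5 without 967B4 and 981E5, 0 with a 2-fold range as well, and 1 to 5 when a clone was left out. It was highest, 5, without 967B4, where Impact, Cdkn1c, Asb4 and Ppp1r9a joined Mkrn3. For series E against 979B, 2 became 4 with normexp, both filters, trend and robust estimation, or without the 2 clones, 0 with a 2-fold threshold, and 1 to 5 when a clone was left out (5 without 967B4). For 979F against series E, 1 became 2 with normexp, the filter on at least 3 arrays and trend and robust estimation, 3 with the filter on all 12 arrays or without the 2 clones, 0 with a 2-fold threshold, and 0 to 5 when a clone was left out (5 without 967B4). For 979F against 979B, 0 became 1 with normexp and the filter on all 12 arrays, 3 without the 2 clones, and 0 to 1 when a clone was left out. For 979B against 967B, 0 became 2 with normexp, the filter on all 12 arrays and without the 2 clones, 1 with quantile normalization, the filter on at least 3 arrays and trend and robust estimation, and 0 to 1 when a clone was left out. The 2 filters test fewer probes, and otherwise the cause was not tested. Shares of all probes were counted for the main fit only, so the counts under other settings are no result about the imprinted genes.

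The median spread of the 35 genes, 0.42, was 0.38 to 0.44 when a clone was left out. Of the neighbouring pairs 2 passed, and 7 on deviations from series means, where the permutation p may be too small. Other pairs were not examined. Of the genotype differences, none called, 10 changed sign under some setting. With all clones they were 0.15 for Peg3, 0.21 for Igf2, 0.09 for Magel2 and for Peg12, -0.10 for Plagl1, 0.44 for Nnat, 0.87 for Nap1l5, -0.24 for Slc22a18, -0.05 for Snrpn and -0.07 for Peg10. With slide as a fixed block they were -0.57 for Peg3, -0.15 for Igf2, -0.17 for Magel2, -0.44 for Peg12, 0.11 for Plagl1, -0.62 for Nnat, -0.0484 for Nap1l5 and 0.47 for Slc22a18. Without 967B4 and 981E5 they were -0.0402 for Magel2 and 0.25 for Plagl1. For Snrpn the difference was 0.0188 with quantile normalization and 0.0023 with the percentile over detected probes. When a clone was left out, the difference ranged from -0.15 to 0.35 for Peg3, -0.12 to 0.0104 for Peg10, -0.30 to 0.0531 for Snrpn, -0.23 to 0.29 for Magel2, -0.16 to 0.35 for Peg12, -0.25 to 0.21 for Plagl1 and -0.14 to 0.86 for Nnat. Signal over background limits Zim1, Nap1l5, Nnat and Calcr, and 3 genes were below it in every clone.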

Other observations

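None of the markers of 4 early lineages other than the pluripotent cell was called between genotypes in limma. The 5 markers of primitive endoderm, the layer beside the pluripotent epiblast, had a mean log2 level of -4.13 to -2.90 in Aid+/+ clones and -3.43 to -2.21 in Aid-/- clones. Gata6, a transcription factor of this layer, averaged -3.79 and -3.04 (limma adjusted p = 0.418), and Dab2, an endocytic adaptor, -3.01 and -1.89 (0.429). The 5 trophoblast markers lay at -1.68 to -0.94 and -1.83 to -0.88. Of these Krt7, a keratin of simple epithelia, was called for 979F against the Aid-/- clones 981E1, 981E4 and 981E5 (limma adjusted p = 0.048). So was Nes, an intermediate filament of neural progenitors and 1 of 4 neural markers (0.032), beside 3.02% of all probes. All 4 neural markers were well above background in every clone, with a mean of -0.53 to -0.23 in Aid+/+ and -0.87 to -0.36 in Aid-/- clones. Of the 4 mesoderm markers, Mixl1 and Mesp1 were not well above background in any clone, and Kdr, a receptor for vascular growth factor, was so in all 12. Their part in the levels of the imprinted genes was not tested.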
